A study of Mus musculus with 6 samples.

Results

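Immediate early genes are transcribed within minutes of a stimulus, such as serum, a growth factor or stress, from factors that the cell already holds, and many of their mRNAs are short lived. The genes described here were 10 of them, chosen by name as the EGR, NR4A and IER genes with *Maff* and *Myc*. The choice was made with earlier results of these data known. *Egr1*, *Egr2* and *Egr3* encode zinc finger transcription factors, *Nr4a1* and *Nr4a2* encode orphan nuclear receptors, *Ier2*, *Ier3* and *Ier5* encode small proteins named for their early induction, *Maff* encodes a small MAF protein that lacks a transactivation domain, and *Myc* encodes a basic helix-loop-helix factor that pairs with MAX. All 10 were among the 55291 genes listed, and all 10 passed the filter on low counts that left 14290 genes for testing.

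The RNA came from WT mouse embryonic fibroblasts (MEFs), cells grown from embryos, which were treated with vehicle, with MASM7 at 1 μM for 6 h or with MFI8 at 20 μM for 6 h. MASM7 was selected as an activator and MFI8 as an inhibitor of the mitofusins MFN1 and MFN2, the GTPases of the outer membrane that fuse mitochondria. The labels give neither the solvent nor the duration of the vehicle treatment, and each group held 2 libraries of poly-A RNA, described as independent biological replicates. Since the compounds were used at different concentrations, compound and concentration cannot be told apart in any comparison between them.

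A library held 22791792 to 30677751 gene counts, and the TMM factors that scale the libraries ranged from 0.991 to 1.01. The 10 genes together took 0.0474% to 0.0660% of the counts of a library. Of 10 fibroblast markers, 8 reached a TPM (a transcript level per length, scaled to the same total in each library) of at least 1, led by *Vim*, *S100a4* and *Col1a1*, while *Thy1* stayed at a mean TPM of 0.385 to 0.567 and *Fap* was at 0 with vehicle and with MASM7. The summed TPM of the fibroblast markers was 5571 to 6930 with vehicle, 6129 to 6972 with MASM7 and 5424 to 6589 with MFI8. Endothelial and muscle markers summed to at most 0.433 and epithelial markers to at most 1.69 TPM in any library. Blood and macrophage markers summed to 13.5 to 16.9 TPM, with *Adgre1* and *Hbb-bt* at 0 in every library. *Cd68* (a mean TPM of 9.38 to 10.9 over the groups) and *Csf1r* (4.33 to 5.17) carried that sum. The library labelled MFI8 replicate 2 stood apart for some of the genes below, so the values that moved most without it are given both ways.

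Levels were compared between genes in the deposited TPM. With vehicle, *Ier3* was the most abundant of them (249 ± 13.5 TPM, SD, n = 2), followed by *Myc* (206 ± 21.9), *Ier5* (92.9 ± 14.1), *Ier2* (88.1 ± 1.20), *Egr1* (49.7 ± 1.33), *Maff* (40.2 ± 1.43), *Nr4a1* (19.3 ± 0.360), *Egr3* (12.4 ± 4.58), *Nr4a2* (4.41 ± 0.0170) and *Egr2* (2.83 ± 1.06). In that order the libraries of *Ier5* and *Ier2* overlapped, and no other neighbours did. *Ier3* lay at the percentile 95.2 and *Egr2* at the percentile 19.7 of the genes tested. All 10 mRNAs were thus detected with vehicle alone.

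**Figure D1:**
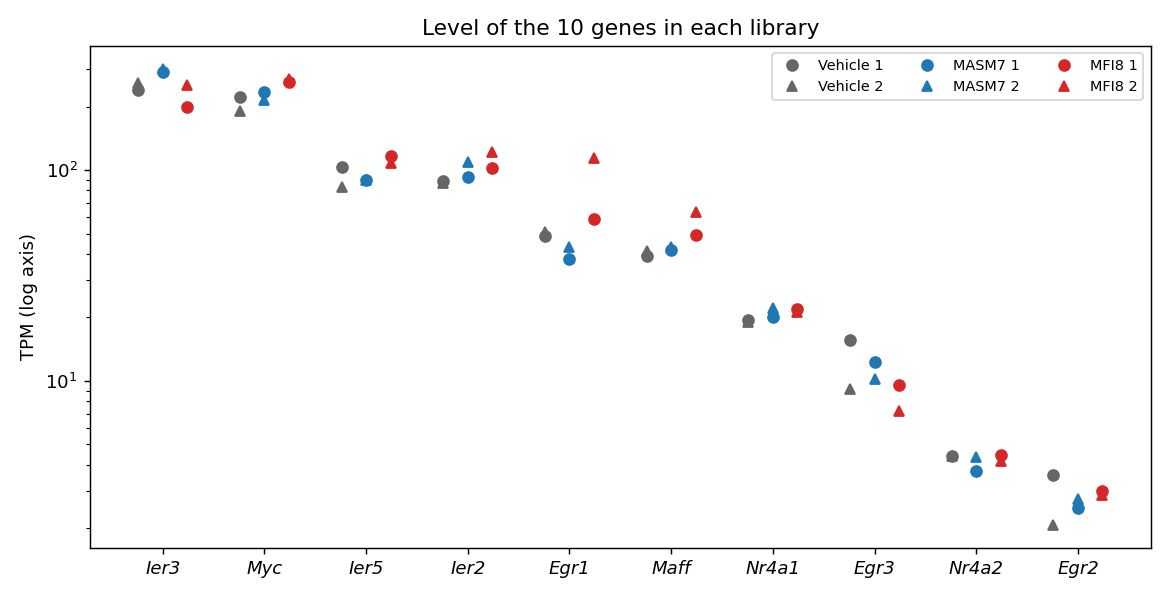
TPM of the 10 genes in each of the 6 libraries, on a log axis, with circles for replicate 1 and triangles for replicate 2 of vehicle (grey), MASM7 (blue) and MFI8 (red). The genes are ordered by their mean with vehicle, from *Ier3* at 249 TPM to *Egr2* at 2.83 TPM, and the widest gap within a group is that of *Egr1* with MFI8, at 58.4 and 114 TPM.

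The order differed between the groups in a few places. With MFI8, *Myc* (265 ± 6.22 TPM) stood above *Ier3* (226 ± 39.0 TPM), and these 2 ranges did not overlap. *Ier2* (112 ± 14.0), *Ier5* (112 ± 6.20), *Egr1* (86.0 ± 39.0) and *Maff* (56.1 ± 10.2) followed, with libraries of each overlapping those of the next. With MASM7, *Ier3* (297 ± 7.76 TPM) led *Myc* (224 ± 13.1 TPM), and *Maff* (42.6 ± 0.844) and *Egr1* (40.4 ± 3.88) overlapped. *Nr4a1*, *Egr3*, *Nr4a2* and *Egr2* held the last 4 places in every group.

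The sequence just upstream of the start site is shown for the members whose promoters are in the RefSeq table used here and hold no annotated exon in the stretch, since such promoters carry binding sites through which stimuli reach immediate early genes. Each line gives the 100 bases before a start site on the GRCm38.p6 assembly, 5′ to 3′ on the strand of the gene. Capitals mark matches to the CRE (TGACGTCA), the shorter TGACG that it contains on each strand, the EGR site (GCGNGGGCG) and the CArG box, on either strand. For genes with several start sites the one with most matches is shown.

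Maff, chr15:79347420-79347519, + strand: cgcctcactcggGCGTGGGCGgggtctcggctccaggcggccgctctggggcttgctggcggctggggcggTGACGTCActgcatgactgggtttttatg
Ier5, chr1:155099637-155099736, - strand: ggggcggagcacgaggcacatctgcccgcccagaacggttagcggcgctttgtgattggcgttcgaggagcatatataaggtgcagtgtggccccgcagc
Nr4a1, chr15:101266746-101266845, + strand: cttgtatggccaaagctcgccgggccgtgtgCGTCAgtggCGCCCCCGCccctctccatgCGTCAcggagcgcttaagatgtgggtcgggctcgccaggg
Nr4a2, chr2:57124004-57124103, - strand: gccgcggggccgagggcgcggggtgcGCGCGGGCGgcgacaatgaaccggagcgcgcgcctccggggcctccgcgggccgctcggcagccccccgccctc
Egr2, chr10:67537769-67537868, + strand: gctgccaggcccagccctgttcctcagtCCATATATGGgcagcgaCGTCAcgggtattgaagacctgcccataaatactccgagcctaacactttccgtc

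*Maff* held a full CRE, the site bound by CREB and ATF proteins, 29 to 22 bases before its start site, and an EGR site 88 to 80 bases before it. The CRE contains 2 TGACG sites, 1 on each strand, which overlap. Of 32851 RefSeq promoter windows searched over the same 250 upstream bases, 1.55% held the CRE, 17.8% a TGACG site and 4.70% an EGR site. *Nr4a1* held 4 TGACG sites over the 250 bases, of which 2 are in the stretch shown, and an EGR site. *Nr4a2* held 4 TGACG sites, all upstream of the stretch shown, and an EGR site. It also held TATAAA, the TATA box letters (in 12.4% of windows), on the opposite strand, 164 to 159 bases before the start site. *Egr2* held 2 TGACG sites and a CArG box, the site of serum response factor, which 1.47% of windows held. *Ier5* and *Ier3* held no match to the letters of these motifs nor to an AP-1 site (TGANTCA, in 6.75% of windows) in the 250 bases. The TATA box was searched as TATAAA alone, so variants such as the tataag in the *Ier5* line were not counted. The shares count single windows, while the window of *Maff* was chosen from 3 start sites and that of *Egr2* from 5, for most matches. A match is a run of letters and not a measured site.

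*Nr4a1*, *Maff* and *Myc* share a chromosome, and each of the others lies on its own. In the GENCODE vM21 annotation of GRCm38, *Egr1* spans chr18:34859823-34864984, *Egr2* chr10:67535475-67542188, *Egr3* chr14:70077203-70082614, *Ier2* chr8:84661331-84662852, *Ier3* chr17:35821684-35822923, *Ier5* chr1:155096361-155099636, *Nr4a1* chr15:101254269-101274795, *Nr4a2* chr2:57106830-57124003, *Maff* chr15:79346621-79359076 and *Myc* chr15:61985391-61990374. No other annotated gene shared exonic bases with any of them in that annotation.

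The comparison of MFI8 with vehicle asks which of the mRNAs differed after treatment with the mitofusin inhibitor. Of the 10 genes, 7 had a log2 fold change above 0 and 3 below it. *Egr1*, *Maff*, *Myc*, *Ier2* and *Ier5* were higher with MFI8 at an unadjusted p under 0.05 and *Egr3* was lower, but none passed the adjustment over all genes tested (edgeR quasi-likelihood test, Benjamini-Hochberg). The same test called 0% of all genes at an adjusted p under 0.05, with 1409 genes at an unadjusted p under 0.05. At an unadjusted p under 0.05, 5.21% of all genes were higher and 4.65% lower. The 5 of 10 members higher were above the first share and the 1 of 10 lower was near the second. Since the members were chosen with earlier results known, this is a description and not a test of the set. The DESeq2 Wald test called 48 genes (0.368% of those it tested), of which *Myc* was the only member, and limma on log2(TPM + 1) called 8 genes (0.0544%) and no member. On the log2 scale, the median difference was 0.19 over the 10 genes and 0.0027 over all genes tested, and the first was 0.38 without Vehicle replicate 1 and 0.098 without Vehicle replicate 2. In bulk RNA such as this, a difference in the number of cells that hold an mRNA and a difference in the mRNA per cell cannot be told apart.

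*Egr1*, the best known of the EGR factors and induced through ERK signalling, had 1419 and 1605 counts with vehicle and 1670 and 4362 with MFI8. These were 62.2 and 63.8 CPM (the count scaled to a common library size) with vehicle and 72.7 and 141 CPM with MFI8. Both MFI8 libraries were above both vehicle libraries, but replicate 2 stood far above replicate 1, and their gap of 0.96 on the log2 scale was larger than that of 97.4% of the genes tested. The log2 fold change was 0.77 (SE 0.23, adjusted p = 0.367 in edgeR). Without MFI8 replicate 2 it was 0.21, and without MFI8 replicate 1 it was 1.17, so the size of the difference depended on MFI8 replicate 2.

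*Egr2* and *Egr3*, which are close relatives of *Egr1*, had other patterns. *Egr3* had 19.6 and 11.3 CPM with vehicle and 11.7 and 8.78 CPM with MFI8. One MFI8 library lay between the vehicle libraries and one below both, so the groups overlapped. The log2 fold change of -0.60 (SE 0.23, adjusted p = 0.448 in edgeR) was -0.15 without Vehicle replicate 1 and -0.95 without Vehicle replicate 2. *Egr2* had 3.46 and 1.99 CPM with vehicle and 2.83 and 2.72 CPM with MFI8. Both MFI8 libraries lay between the vehicle libraries, and the log2 fold change was 0.03, with a 95% interval of -0.55 to 0.62. It was 0.48 without Vehicle replicate 1 and -0.32 without Vehicle replicate 2. These values rested on 50 to 84 counts per library, the fewest of the 10 genes, and the gap between the vehicle libraries, -0.78 on the log2 scale, was larger than that of 95.4% of the genes tested.

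*Maff*, whose product pairs with CNC and BACH proteins, had 29.0 and 30.1 CPM with vehicle and 35.3 and 45.6 CPM with MFI8. The groups did not overlap, and the vehicle libraries were close to each other. The log2 fold change was 0.46 (SE 0.11, unadjusted p = 0.00197, adjusted p = 0.304 in edgeR), which ranked 91 of 14290 genes by p. Without MFI8 replicate 2 it was 0.26, and without MFI8 replicate 1 it was 0.63.

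*Myc*, the regulator of growth and metabolism, had 171 and 145 CPM with vehicle and 197 and 203 CPM with MFI8. The 2 MFI8 libraries were nearly equal and both lay above both vehicle libraries. The log2 fold change was 0.34 (SE 0.077, 95% interval 0.17 to 0.51) with an adjusted p of 0.270 in edgeR, and *Myc* ranked 71 of 14290 genes. It was the only member that DESeq2 called, with a log2 fold change of 0.34 and an adjusted p of 0.0251, while the adjusted p ranged from 1.56e-05 to 0.802 over the alternatives tried. Without MFI8 replicate 2 the log2 fold change was 0.32, so the size of this difference, though not its p-value, held without that library. The log2 fold change was 0.23 without Vehicle replicate 2 and 0.46 without Vehicle replicate 1.

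The IER genes gave a log2 fold change above 0 for *Ier2* and *Ier5* and below 0 for *Ier3*, none past the adjusted test, and the difference between them was not tested. *Ier2*, which encodes a nuclear protein, had 38.6 and 37.4 CPM with vehicle and 43.3 and 51.6 CPM with MFI8. Its groups did not overlap, and the log2 fold change was 0.33 (SE 0.10, adjusted p = 0.396 in edgeR) and 0.19 without MFI8 replicate 2. *Ier5*, a target of heat shock factor, had 96.0 and 76.4 CPM with vehicle and 106 and 97.8 CPM with MFI8. Its groups did not overlap either, but Vehicle replicate 1 came close to the lower MFI8 library, and the log2 fold change of 0.24 (SE 0.094, adjusted p = 0.448 in edgeR) was 0.085 without Vehicle replicate 2 and 0.42 without Vehicle replicate 1. *Ier3*, whose product modulates apoptosis, had 77.1 and 82.2 CPM with vehicle and 62.3 and 79.6 CPM with MFI8. One MFI8 library lay between the vehicle libraries, and the log2 fold change was -0.16 with a 95% interval of -0.38 to 0.057. It was -0.35 without MFI8 replicate 2 and 0.00078 without MFI8 replicate 1, so its sign depended on the library.

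For both nuclear receptors the 95% interval included 0. *Nr4a1* had 19.5 and 18.8 CPM with vehicle and 21.4 and 20.7 CPM with MFI8. Its groups did not overlap, and the log2 fold change was 0.14 (95% interval -0.060 to 0.34). *Nr4a2* had 5.09 and 5.05 CPM with vehicle and 5.05 and 4.70 CPM with MFI8, and the log2 fold change was -0.059 (95% interval -0.41 to 0.29), with -0.0041 without MFI8 replicate 2 and -0.11 without MFI8 replicate 1.

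Counted over the libraries, *Egr1*, *Ier2*, *Ier5*, *Nr4a1*, *Maff* and *Myc* had both MFI8 libraries above both vehicle libraries, which 20.9% of all genes had, and no member had both below, which 19.3% of all genes had. In CPM, MFI8 replicate 2 was the highest of the 6 libraries for 4 genes (*Egr1*, *Ier2*, *Maff* and *Myc*) and MFI8 replicate 1 for 1 gene (*Ier5*), while Vehicle replicate 2 was the lowest for 5 genes. Without MFI8 replicate 2, 3 members rather than 5 were higher at an unadjusted p under 0.05, while the share of all genes tested fell from 5.21% to 3.39%. The share of mitochondrially encoded counts also did not overlap between these groups, at 1.37% and 1.43% with MFI8 and 1.66% and 1.82% with vehicle, and with MASM7 it lay between them at 1.61% and 1.51%. The summed TPM of the 4 neural markers, which *Nes* and *Tubb3* carried with *Sox2* at 0, was 295 to 312 with MFI8, 283 to 294 with MASM7 and 266 to 267 with vehicle. That of the blood and macrophage markers was 13.5 to 14.0 with MFI8, 14.6 to 16.9 with MASM7 and 15.2 to 16.3 with vehicle. Of 9 fibroblast markers tested, 8 had a log2 fold change below 0 with MFI8 against vehicle (median -0.16) and 9 against MASM7 (median -0.21), none at an unadjusted p under 0.05. The part of any of these in the values of the 10 genes, in all 3 comparisons, was not tested.

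**Figure D2:**
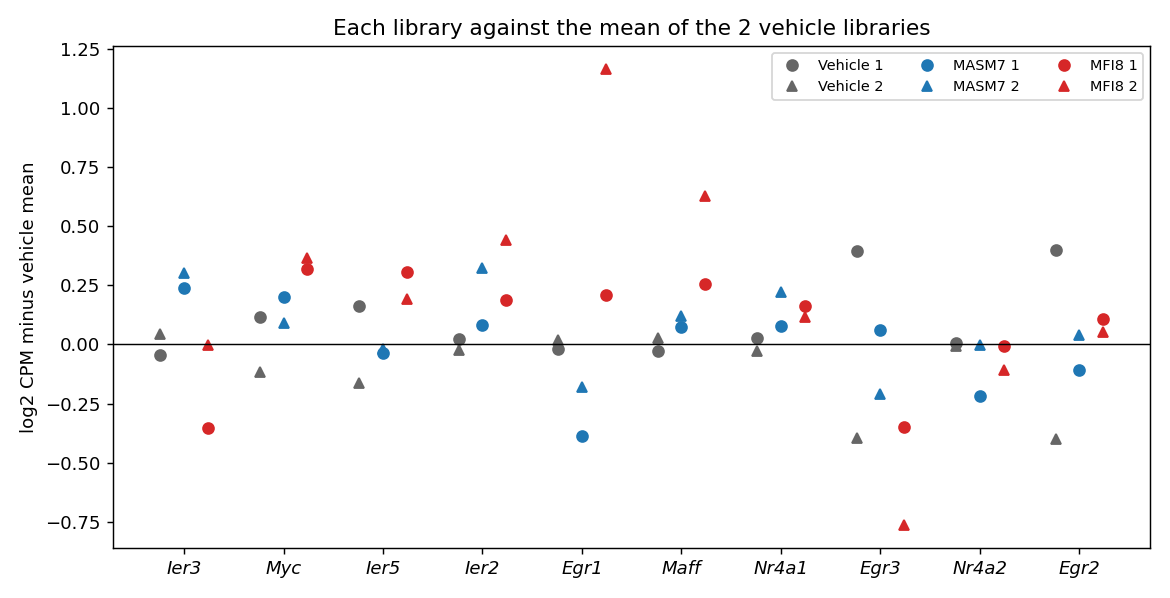
Difference of each library from the mean of the 2 vehicle libraries, in log2 CPM, for the 10 genes, with circles for replicate 1 and triangles for replicate 2 of vehicle (grey), MASM7 (blue) and MFI8 (red). *Egr1*, *Maff* and *Ier2* are highest in MFI8 replicate 2, both MFI8 libraries of *Myc* sit together, and the vehicle libraries of *Egr2* and *Egr3* are far apart.

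The comparison of MASM7 with vehicle asks the same of the mitofusin activator, and it shares its vehicle libraries with the comparison above. Of the 10 genes, 5 had a log2 fold change above 0 and 5 below it, with a median of 0.030 where that of all genes was 0.00067. The median was 0.20 without Vehicle replicate 1 and -0.040 without Vehicle replicate 2. *Ier3* alone was higher at an unadjusted p under 0.05, which 5.32% of all genes were, and none was lower, which 4.88% of all genes were. At an adjusted p under 0.05, edgeR called 0% of all genes, with 1458 genes at an unadjusted p under 0.05, DESeq2 called 2 genes (0.00747%) and limma 14 genes (0.0952%), with no member among them. The 1 of 10 members higher was near the share of all genes.

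*Ier3* had 1758 and 2067 counts with vehicle and 2780 and 2982 with MASM7, or 77.1 and 82.2 CPM and 94.0 and 98.0 CPM. Both MASM7 libraries were above both vehicle libraries. The log2 fold change was 0.27 (SE 0.097, unadjusted p = 0.0201, adjusted p = 0.473 in edgeR), and it ranged from 0.22 to 0.32 as each library was left out.

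*Egr1* had 48.2 and 55.6 CPM with MASM7, both below the 62.2 and 63.8 CPM of vehicle. The log2 fold change was -0.28 with a 95% interval of -0.80 to 0.24, and it was -0.18 without MASM7 replicate 1 and -0.38 without MASM7 replicate 2. *Ier2* had 40.2 and 47.5 CPM, *Nr4a1* 20.2 and 22.3 CPM and *Maff* 31.1 and 32.1 CPM with MASM7, and each was above both of its vehicle libraries. Their log2 fold changes were 0.21, 0.15 and 0.097, and the 95% interval of each included 0. *Ier2* was at 0.083 and *Nr4a1* at 0.078 without MASM7 replicate 2, and at 0.32 and 0.22 without MASM7 replicate 1. Thus 4 of the 10 genes lay above both vehicle libraries, which 21.2% of all genes did, and 1 below both, which 21.6% of all genes did.

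For the other 5 genes the MASM7 and vehicle libraries overlapped. *Myc* had 181 and 168 CPM with MASM7, with a log2 fold change of 0.14 (95% interval -0.030 to 0.31) that was 0.26 without Vehicle replicate 1 and 0.029 without Vehicle replicate 2. *Ier5* had 83.5 and 84.4 CPM, with a log2 fold change of -0.036 (95% interval -0.25 to 0.17) that was 0.14 and -0.19 without the same libraries. *Egr2* (2.43 and 2.70 CPM), *Egr3* (15.6 and 12.9 CPM) and *Nr4a2* (4.36 and 5.06 CPM) had log2 fold changes of -0.078, -0.12 and -0.10. The intervals of *Egr2* and *Egr3* were wide, at -0.66 to 0.50 and -0.62 to 0.39, and their signs turned with the vehicle library left out. Without Vehicle replicate 1 they were at 0.37 and 0.33, and without Vehicle replicate 2 at -0.43 and -0.46. *Nr4a2* was at -0.00087 without MASM7 replicate 1 and at -0.22 without MASM7 replicate 2.

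**Figure D3:**
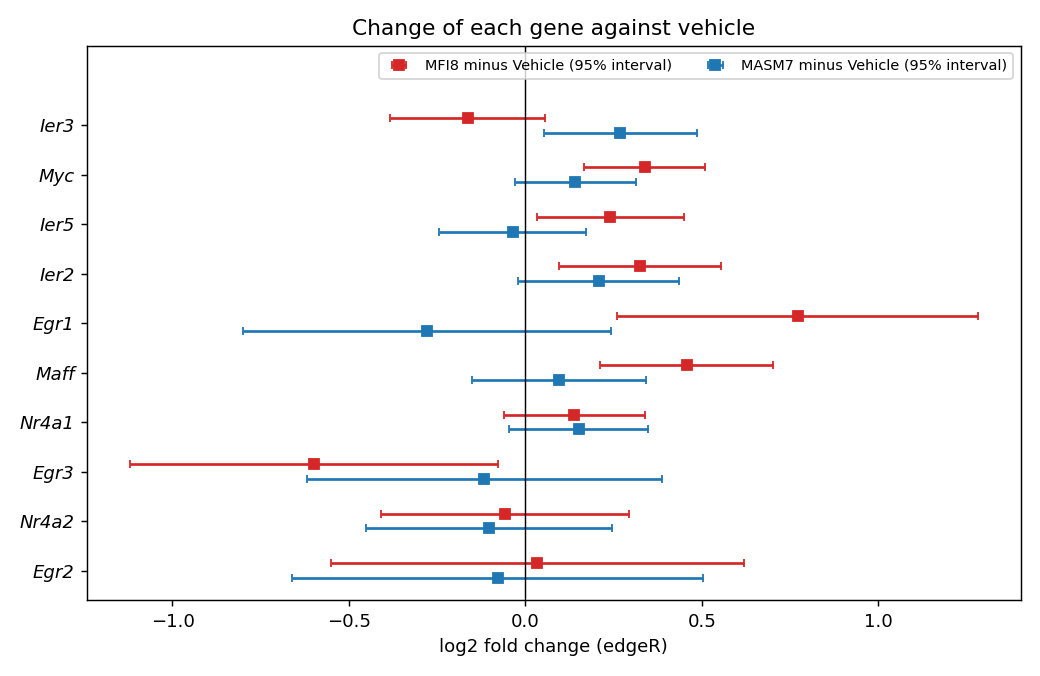
Log2 fold change of the 10 genes against vehicle for MFI8 (red) and MASM7 (blue) from the edgeR fit, with bars for the 95% interval. The intervals of *Egr1*, *Maff*, *Myc*, *Ier2*, *Ier5* and *Egr3* lie off 0 for MFI8 and that of *Ier3* for MASM7, before any adjustment for the number of genes tested.

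MFI8 was also compared directly with MASM7, at 20 and 1 μM. The widest gap was that of *Egr1*, with 72.7 and 141 CPM with MFI8 and 48.2 and 55.6 CPM with MASM7. The MFI8 libraries lay above both MASM7 libraries, and the log2 fold change was 1.05 (SE 0.23, unadjusted p = 0.00105, adjusted p = 0.335 in edgeR). It was 0.49 without MFI8 replicate 2 and 1.45 without MFI8 replicate 1. *Ier3* went the other way, with 62.3 and 79.6 CPM with MFI8 and 94.0 and 98.0 CPM with MASM7. Its log2 fold change was -0.43 (SE 0.098, adjusted p = 0.336 in edgeR) and -0.27 without MFI8 replicate 1 and -0.62 without MFI8 replicate 2. DESeq2 called *Ier3* lower with MFI8 than with MASM7 (log2 fold change -0.44, adjusted p = 0.0301), and over the alternatives the adjusted p ranged from 3.73e-07 to 0.952.

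*Maff* (0.36), *Ier5* (0.28) and *Myc* (0.20) were higher with MFI8 than with MASM7 on the log2 scale at an unadjusted p under 0.05. *Maff* was at 0.16 without MFI8 replicate 2 and at 0.53 without MFI8 replicate 1. With *Egr1* they made 4 members higher, against 4.23% of all genes, and *Ier3* was the 1 member lower, against 2.95% of all genes. At an adjusted p under 0.05, edgeR called 0% of all genes, with 1026 genes at an unadjusted p under 0.05, DESeq2 called 29 genes (0.231%) and limma 13 genes (0.0884%). Both MFI8 libraries lay above both MASM7 libraries for *Egr1*, *Egr2*, *Ier5*, *Maff* and *Myc* and below them for *Egr3* and *Ier3*, and 19.6% of all genes did so in either direction. For *Ier2*, *Nr4a1* and *Nr4a2* the libraries overlapped, and their 95% intervals were -0.11 to 0.34, -0.21 to 0.18 and -0.30 to 0.39. Over the 6 libraries, *Egr1* and *Maff* varied most alike of any pair of the 10 genes (Pearson's r = 0.907 in log2 CPM), a description that MFI8 replicate 2 weighs on.

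Other immediate early genes were followed as a list of 43, of which 42 were tested, with no members in it. This list too was chosen with earlier results of these data known, so its counts are a description. With MFI8, 38 of the 42 had a log2 fold change above 0 and 4 below, with a median of 0.27, against 0.0027 for all genes. None passed edgeR's adjusted test. At an unadjusted p under 0.05, 26 were higher, against 5.21% of all genes, and 1, *Tiparp*, was lower, against 4.65%. Both MFI8 libraries lay above both vehicle libraries for 26, against 20.9% of all genes. DESeq2 called *Arc* and *Fosb*. Without MFI8 replicate 2 the median was 0.21, and 13 rather than 26 were higher at an unadjusted p under 0.05, against 3.39% of all genes in that fit. With MASM7, 34 of 42 were above 0 with a median of 0.10, and 3 were higher at an unadjusted p under 0.05, against 5.32% of all genes.

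*Atf3*, a stress-induced member of the ATF and CREB family, had the smallest p of that list. It had 2.24 and 3.06 CPM with vehicle, 2.47 and 3.65 CPM with MASM7 and 6.75 and 20.9 CPM with MFI8. Both MFI8 libraries were above the others, with replicate 2 again the highest, and the log2 fold change was 2.40 (SE 0.46, adjusted p = 0.186 in edgeR), 1.34 without MFI8 replicate 2 and 2.97 without MFI8 replicate 1. *Fosb*, an AP-1 subunit, had 3.11 and 3.54 CPM with vehicle and 5.79 and 8.13 CPM with MFI8, a log2 fold change of 1.07 (SE 0.22) that was 0.80 without MFI8 replicate 2. *Arc*, known from neurons as a synaptic regulator, had 16.4 and 16.5 CPM with vehicle and 22.6 and 33.3 CPM with MFI8, a log2 fold change of 0.77 (SE 0.17) that was 0.46 without MFI8 replicate 2. In these 3 genes, as in *Egr1* and *Maff*, MFI8 replicate 2 exceeded replicate 1.

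**Figure D4:**
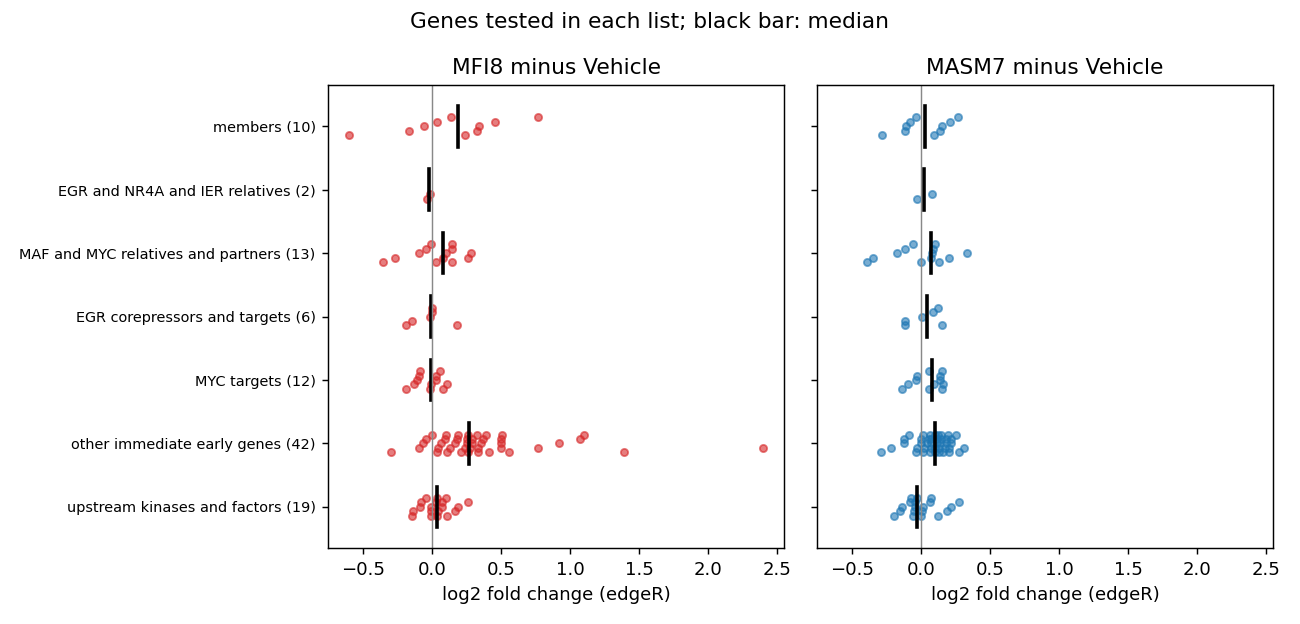
Log2 fold change against vehicle for MFI8 (left) and MASM7 (right) of the genes tested in each list, 1 point per gene, with a black bar at the median and the number of genes tested in parentheses. The median of the other immediate early genes is 0.27 with MFI8 and 0.10 with MASM7, and that of the 10 genes is 0.19 and 0.030.

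Close relatives, partners and targets of the 10 genes were followed as well. *Nr4a3*, with at most 6 counts, and *Egr4*, with at most 3, were too low to test, and *Ier5l* and *Ier3ip1* had log2 fold changes of -0.034 and -0.012 with MFI8. Of 13 MAF and MYC relatives and partners tested, 1 was higher and 1 lower with MFI8 at an unadjusted p under 0.05, where 5.21% and 4.65% of all genes were. *Mafg*, another small MAF gene, was the 1 higher, with 144 and 138 CPM with vehicle and 167 and 176 CPM with MFI8, and its log2 fold change was 0.28 (SE 0.054, adjusted p = 0.189 in edgeR). DESeq2 called it (adjusted p = 0.0326). *Maf*, which encodes a large MAF factor, was the 1 lower, at -0.27, and *Mycn*, a paralog of *Myc*, was at -0.35 with an unadjusted p of 0.0665.

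Of 6 corepressors and targets of the EGR factors tested, *Nab1* (-0.14) was lower with MFI8 at an unadjusted p under 0.05, as 4.65% of all genes were, while *Nab2* (-0.19) and *Id3* (0.18) were not called. NAB1 and NAB2 bind EGR proteins and repress them. The median of the 6 was -0.0094. Of 12 MYC targets, *Npm1* (-0.19) and *Nop58* (-0.13), which serve ribosome assembly, were the 2 lower with MFI8 at an unadjusted p under 0.05, against the same 4.65%, and *Cad* (0.11) of pyrimidine synthesis was not called. The median of the 12 was -0.0077 with MFI8 and 0.079 with MASM7, where 4 were higher at an unadjusted p under 0.05, against 5.32% of all genes. With MFI8 against MASM7, 11 of the 12 were below 0 and 1 above, with a median of -0.080. Of these, 4 were lower at an unadjusted p under 0.05, against 2.95% of all genes.

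Of 19 upstream kinases and factors, which carry stimuli to these promoters, 3 were higher and 1 lower with MFI8 at an unadjusted p under 0.05, against 5.21% and 4.65% of all genes. The 3 were *Srf* (0.26), the serum response factor that binds CArG boxes and is also in the list of other immediate early genes, and its coactivators *Mrtfa* (0.17) and *Mrtfb* (0.19). With MASM7 their log2 fold changes were 0.22, 0.27 and 0.018. The mRNAs of the compound targets gave small values: *Mfn1* had a log2 fold change of -0.089 with MFI8 and -0.12 with MASM7, and *Mfn2* of 0.065 and 0.0098. *Mfn1* was lower with MASM7 at an unadjusted p of 0.0484 (adjusted p = 0.488 in edgeR), with both libraries below both vehicle libraries.

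The genes whose level over the 6 libraries was most like the mean standardised level of the 10 were *E530011L22Rik* (Pearson's r = 0.971 over 6 libraries), *Mrgpre* (0.954), *Masp2* (0.944), *C920006O11Rik* (0.941) and *Nxph4* (0.931), out of 1619 genes that spanned at least 1 on the log2 scale. All 5 were low, from 0.159 to 1.56 CPM, and with 6 points such a correlation is a description only.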

How the data were processed

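RNA-seq of 6 libraries of WT MEFs was used (2 each of vehicle, MASM7 and MFI8). The authors trimmed reads with Trimmomatic, aligned them to GRCm38 (mm10) with STAR and counted reads on exons with featureCounts. They deposited raw counts per gene, the same counts divided by 1 size factor per library (a signal on the count scale, used here only to check that scaling) and TPM. The annotation release, the strand setting and the gene lengths behind TPM are not given in the sources used here. Groups came from the treatment label, and concentration and time from the study's methods and legends.

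One model over the counts of the 6 libraries was fitted with edgeR 4.0.16 (R 4.3.3) with TMM factors, filterByExpr (14290 genes kept) and the quasi-likelihood F test, and p-values were adjusted by Benjamini-Hochberg over all genes at 0.05. CPM use TMM factors. With groups this small an exact permutation test has 0.333 as its smallest p, so none was run, and p-values measure the spread between these libraries. DESeq2 1.42.0 and limma 3.58.1 on log2(TPM + 1) of genes at a TPM of at least 1 in 2 libraries, a scale that understates changes of low genes, were alternatives, with other normalizations and filters, only the groups compared, the replicate block, and each library left out in turn. Scripts were tested on simulated data.

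The members and lists were chosen with earlier results of these data known. Named were all members, *Mfn1* and *Mfn2*, from each other list the 3 genes with the smallest p for MFI8 against vehicle, the 5 genes most like the members' mean profile, and cell type markers. *Tiparp*, *Nr4a3* and *Egr4* were named after their values were seen. Promoters (RefSeq, 6 of 10 genes matched, 250 bases upstream) were searched for 6 motifs on both strands.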

Additional observations from a re-analysis of the deposited data

How the results depend on the processing

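As reported, edgeR called no gene, so there was no call to lose or reverse. Of 672 values recomputed under the alternatives, 596 counted as the same, 46 moved and 30 passed the threshold where they had not before. Same meant the same side of the threshold, or a value within the spread. The 596 include fold changes whose sign turned while neither fit passed the threshold. In 9 of 30 combinations of a gene and a comparison the sign of the fold change was not the same under every alternative, among them *Egr2* and *Egr3* with MASM7, and none of those signs was called.

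For MFI8 against vehicle, MASM7 against vehicle and MFI8 against MASM7 in that order, edgeR called 0 genes as reported. With no filter beyond 1 count it called 256, 127 and 168 genes, of which 6, 1 and 5 were members. The share of all genes called in that fit is not given, so these member counts are not weighed here. DESeq2 called 48, 2 and 29 genes, with 1 member in the first and 1 in the third, and limma 8, 14 and 13. With only the 2 groups compared, edgeR called 1 gene for MASM7 against vehicle and 2 for MFI8 against MASM7. The median of the members with MFI8 was 0.40 in the replicate 2 libraries alone and 0.14 in the replicate 1 libraries alone. Leaving out each library in turn, the genes called ranged from 0 to 26, 0 to 2 and 0 to 24, the members called from 0 to 2, 0 to 0 and 0 to 1, and the median of the members from 0.098 to 0.38, -0.040 to 0.20 and 0.021 to 0.17. The 26 and the 24 came without MFI8 replicate 1, where *Egr1* (adjusted p = 7.29e-05) and *Maff* (0.0175) were called against vehicle, and the lone MFI8 library was then assumed to vary like the other groups. The median of 0.38 came without Vehicle replicate 1 and that of 0.021 without MASM7 replicate 1.

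With the replicate block, a paired fit on the replicate numbers, edgeR called 720 genes (5.04% of those tested), 554 (3.88%) and 439 (3.07%). The members called were 6 (*Egr1*, *Egr3*, *Ier2*, *Ier5*, *Maff* and *Myc*), 1 (*Ier3*) and 6 (*Egr1*, *Egr3*, *Ier3*, *Ier5*, *Maff* and *Myc*). Of the other immediate early genes, 28 were called for MFI8 against vehicle, in an alternative chosen after seeing the data, as were the values of that list, of its named genes and of the share of all genes without single libraries. The labels do not say that a number marks a shared batch. Deviations of same-numbered libraries from their group means correlated at 0.152, 0.188 and 0.165 over all genes tested (vehicle with MFI8, vehicle with MASM7, MASM7 with MFI8), and at 0.621, 0.508 and 0.538 over the more highly expressed 7145, as a hint only. Each group held 2 libraries, and *Egr2* had 50 to 84 counts in each.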
